A study of Homo sapiens with 4 samples.

Results

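The genes described here are 46 genes of DNA replication and deoxynucleotide (dNTP) supply, measured in SNU638 gastric cancer cells after knockdown of ACTL6A. They were chosen by gene symbol for their known roles, with earlier results of these data known, and were sorted into 4 steps of replication. The list took in 15 genes of origin licensing, 8 of origin firing, 17 of the polymerases and the sliding clamp, and 6 of nucleotide supply. The genes were read by 85 probe sets that carry exactly 1 gene symbol, and each gene was represented by its brightest probe set. All 46 passed the filter on low signal, as did 12286 of the 19775 genes with such a probe set.

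SNU638 is an established human gastric cancer cell line, grown here in serum-containing medium. The first group, sh-ACTL6A (2 arrays), carried a lentiviral short hairpin RNA (vector pLKO.1) against ACTL6A, an actin-like subunit of BAF and other chromatin remodelling complexes. The second group, scramble (2 arrays), carried a scrambled RNA, and puromycin was used to select infected cells. The treatment protocol in the labels names 2 hairpins, shACTL6A-1 and shACTL6A-2, but the labels state neither which of them each sh-ACTL6A array carried nor whether the 2 arrays of each group hold RNA of different cultures. The p-values therefore cover the spread among arrays alone, and that spread may be technical. In the sh-ACTL6A pair it may also hold a difference between hairpins, which was not tested. Every value below is a log2 signal or a difference of log2 signals, sh-ACTL6A minus scramble, so that a difference of 1 is a doubling.

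Before S phase, the origin recognition complex (ORC), CDC6 and CDT1 load the ring of MCM2 to MCM7 onto origins, which is called licensing, and geminin blocks CDT1 once S phase has begun. The kinase CDC7 with DBF4, together with CDC45, GINS and MCM10, then turns the loaded ring into an active helicase. Polymerase alpha-primase starts each new strand, the RFC loader places the PCNA clamp, and polymerases delta and epsilon extend the strands from dNTPs that ribonucleotide reductase, thymidylate synthase, thymidine kinase and dUTPase supply or clean. Many of these genes are transcribed at the G1/S transition under E2F factors. The comparison asks, step by step, whether the transcripts of this machinery differed once ACTL6A was lowered.

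ACTL6A itself had 10.16 and 10.32 on the sh-ACTL6A arrays, against 11.92 and 11.82 on the scramble arrays. Its difference was -1.63 ± 0.14 (SE, n = 2 each, limma adjusted p = 0.0408), a fold of 0.323 with a 95% interval of 0.259 to 0.403. It was the only 1 of the 12286 genes to pass the adjusted threshold of 0.05, which is a background of 0.00814% called. Among the other fits with limma, the call was lost with quantile normalisation (limma adjusted p = 0.0528), without the signal filter (0.0797), without the intensity trend (0.556) and when either scramble array was left out (1.0 and 0.567), and over the 27307 probe sets tested 0 were called. The ACTL6A difference was between -1.71 and -1.55 in every gene fit run. Of 8 epithelial markers 6 lay above the signal threshold, among them EPCAM, CDH1 and KRT18, and their summed linear signal was 40061 and 46886 on the sh-ACTL6A arrays and 46806 and 54804 on the scramble arrays. PTPRC, CD3E and CD14 of the leukocyte markers, COL1A2, COL3A1, LUM and PDGFRB of the fibroblast markers and CDH5, VWF and KDR of the endothelial markers were below the threshold. CD79A of the 4 leukocyte markers, COL1A1 and DCN of the 6 fibroblast markers and PECAM1 of the 4 endothelial markers were above it.

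The promoters of the listed genes are shown first because the E2F factors, under which many of them are transcribed, bind known letters. Windows of 300 bases (250 before and 50 after the start of transcription, RefSeq, GRCh38.p14) were given for 41 of the 46 genes. The E2F site, searched as TTTCGCGC or TTTGGCGC on both strands, was in the windows of 12 of the 41 (29.3%), against 1.4% of all 27305 genes with a window. The 12 were CDC6, GMNN, MCM2, MCM3, MCM6, MCM7, GINS1, POLA1, POLA2, POLE, POLE2 and DUT, 6 of them licensing genes. The lines below show 1 match each for 8 of them, with 22 bases on either side and the matched letters in capitals, written 5′ to 3′ on the strand of the gene.
CDC6, chr17:40287864-40287915, plus strand: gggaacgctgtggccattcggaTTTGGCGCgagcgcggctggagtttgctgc
GMNN, chr6:24775311-24775362, plus strand: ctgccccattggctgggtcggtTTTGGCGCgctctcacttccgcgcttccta
MCM2, chr3:127598391-127598442, plus strand: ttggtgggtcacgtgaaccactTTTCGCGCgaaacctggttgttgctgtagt
MCM3, chr6:52284717-52284768, minus strand: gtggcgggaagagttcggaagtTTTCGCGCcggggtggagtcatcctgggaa
MCM7, chr7:100101377-100101428, minus strand: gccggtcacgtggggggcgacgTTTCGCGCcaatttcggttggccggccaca
GINS1, chr20:25407656-25407707, plus strand: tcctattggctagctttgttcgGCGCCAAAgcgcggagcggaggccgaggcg
POLE2, chr14:49688190-49688241, minus strand: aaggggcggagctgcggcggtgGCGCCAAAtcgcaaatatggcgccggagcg
DUT, chr15:48332148-48332199, plus strand: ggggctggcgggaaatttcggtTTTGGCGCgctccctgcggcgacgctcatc
GINS1 and POLE2 hold the site on the opposite strand, so that it reads GCGCCAAA. Counted from the start of transcription as base 0, the first matched base lay at 7 in CDC6, -80 in GMNN, 2 in MCM2, -4 in MCM3, -9 in MCM7, 5 in GINS1, -5 in POLE2 and -27 in DUT. In MCM2 the match runs on into its own reverse complement.

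A further E2F pattern of the same length was searched as GCGCGAAA or GGCGGGAA on both strands. It is not separate from the site above, since GCGCGAAA is TTTCGCGC read on the other strand, and only GGCGGGAA is added. This pattern was in 15 of the 41 genes (36.6%), against 4.38% of all genes. PCNA, the clamp, holds 1 match to it, GGCGGGAA, and no site of the first kind. The CCAAT box, searched as CCAAT on both strands, was in 23 of the 41 genes (56.1%), against 39.7% of all genes. RRM2, the regulated small subunit of ribonucleotide reductase, has 3 of them in a repeated stretch of 1 window, printed here with the box in capitals. Another RRM2 window, for a different start of transcription, holds 1 more at base -249, which is not printed. The cell cycle homology region, TTTGAA on both strands, was in 3 of the 41 (7.32%), against 18.2% of all genes.
PCNA, chr20:5126653-5126704, minus strand: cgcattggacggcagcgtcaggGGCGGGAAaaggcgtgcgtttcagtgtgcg
RRM2, chr2:10122606-10122687, plus strand: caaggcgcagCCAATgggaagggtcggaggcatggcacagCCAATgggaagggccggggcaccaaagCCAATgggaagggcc
The 12 genes with the E2F site had differences between -0.14 and 0.20, 6 above 0 and 6 below. The 29 without it had a median of -0.03 and a range of -0.67 to 0.21. A match is a description of letters in the window and not a bound site.

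The differences of the 46 genes fell on both sides of 0. Between sh-ACTL6A and scramble cells 21 differences lay above 0 and 25 below, with a median of -0.02 beside 0.01 over all genes tested. The extremes were ORC6, the smallest ORC subunit, at -0.67 and RRM2 at 0.21. By limma 0 of the 46 passed the adjusted threshold, and 0 had an unadjusted p under 0.05, where 5.5% of all genes tested did (3.21% higher and 2.3% lower). The smallest adjusted limma p among the 46 was 0.917. In RNA from whole cultures, a change in the share of cells in S phase and a change in RNA per cell cannot be told apart.

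The differences were also small. They were within 0.2 of 0 for 42 of the 46 genes (91.3%), against 63.6% of all genes tested, and the median standard error was 0.14 for the 46 and 0.19 for all genes. The listed genes were also brighter, with a median log2 signal of 11.23 against 9.54 over all genes tested. The part of the smaller error and of the brighter signal in the smaller differences was not tested. For 35 of the 46 the whole 95% interval lay within 0.5 of 0, a fold between 0.707 and 1.41, and for 45 it lay within 1. Over all 12286 genes tested this held for 4272 and 10033. The 11 genes with wider intervals were ORC1, ORC6, MCM5, GINS1, GINS4, CDC7, RFC1, RFC4, PRIM2, LIG1 and RRM2B. On the sh-ACTL6A arrays 1 gene, RRM2, was above both scramble arrays, where 19.3% of all genes tested were. A further 6 were below both scramble arrays, namely MCM3, GINS3, PCNA, RFC2, RFC5 and DUT, where 15.4% of all genes tested were. In the other 39 genes the arrays of the groups overlapped.

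**Figure D1:**
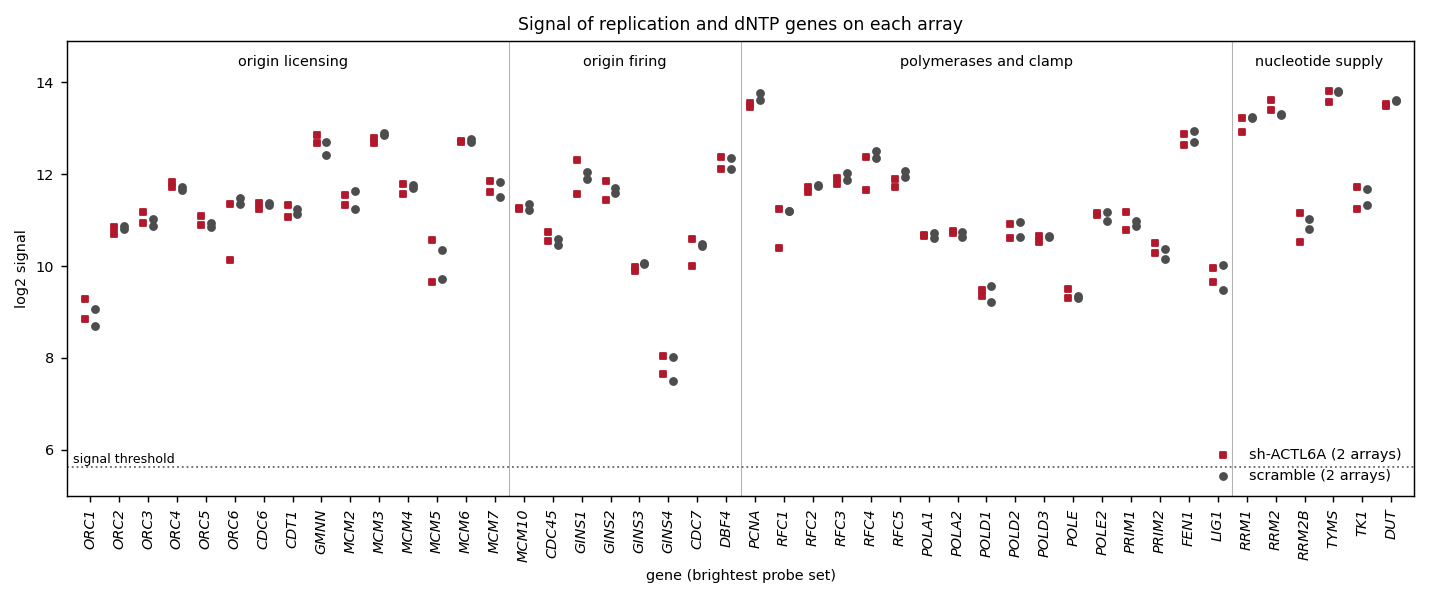
Log2 signal of each of the 46 genes (brightest probe set, along the x axis by step) on every array, with sh-ACTL6A arrays as red squares (n = 2) left of scramble arrays as grey circles (n = 2), and the signal threshold of 5.63 dotted. The squares and circles of a gene overlap in height for 39 genes, and 1 sh-ACTL6A square stands well below the other arrays for ORC6 (10.14), RFC1 (10.40) and RFC4 (11.66).

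Origin licensing, the loading of the helicase ring, had 8 genes above 0 and 7 below. Its median was 0.00 and its range -0.67 to 0.20, and 1 of its 15 genes, MCM3, was below both scramble arrays, where 15.4% of all genes tested were. The ORC subunits, which mark the origin, had a median of 0.09, with 4 of 6 above 0. ORC1, the subunit that comes and goes with the cell cycle, had a difference of 0.18 ± 0.22, and ORC2 to ORC5 lay between -0.07 and 0.11. ORC6 had 10.14 and 11.35 on the sh-ACTL6A arrays, against 11.49 and 11.34 on the scramble arrays. The second sh-ACTL6A array was thus at the scramble level and only the first was low. Its difference was -0.67 ± 0.34 (SE, n = 2 each, limma adjusted p = 0.918), with a fold of 0.63 and a 95% interval of 0.366 to 1.08.

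CDC6, the ATPase that brings MCM rings to ORC, had 11.23 and 11.36 on the sh-ACTL6A arrays, against 11.38 and 11.33 on the scramble arrays. CDT1, the MCM chaperone in loading, had 11.07 and 11.32 on the sh-ACTL6A arrays and 11.24 and 11.14 on the scramble arrays. For both loaders the groups overlapped, with differences of -0.06 ± 0.13 and 0.00 ± 0.15 (SE). GMNN, which encodes geminin, the inhibitor of CDT1, had 12.84 and 12.67 on the sh-ACTL6A arrays, against 12.69 and 12.42 on the scramble arrays. Its difference of 0.20 ± 0.13 (limma adjusted p = 0.927) was the highest of the licensing genes, though its lower sh-ACTL6A array was below the higher scramble array.

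The 6 subunits of the MCM ring had a median of -0.01 and a range of -0.14 to 0.08. MCM2 had 11.32 and 11.55 on the sh-ACTL6A arrays, against 11.25 and 11.63 on the scramble arrays. MCM7 had 11.60 and 11.85 on the sh-ACTL6A arrays, against 11.50 and 11.83 on the scramble arrays. In both genes the arrays of the groups overlapped. MCM3 had 12.79 and 12.67 on the sh-ACTL6A arrays, against 12.85 and 12.89 on the scramble arrays. Here both sh-ACTL6A arrays were the lower ones, at -0.14 ± 0.10 (SE, limma adjusted p = 0.933). MCM6 had 12.69 and 12.72 on the sh-ACTL6A arrays, against 12.76 and 12.69 on the scramble arrays, a difference of -0.02 ± 0.10, and MCM4 had a difference of -0.06. MCM5 had 9.66 and 10.57 on the sh-ACTL6A arrays and 9.71 and 10.35 on the scramble arrays, so the first array of each group was low. For ACTB, a control read at both ends of the transcript, the log2 signal at the 3′ end minus that at the 5′ end was 1.21 and 0.78 on the sh-ACTL6A arrays and 1.63 and 0.78 on the scramble arrays. It was thus higher on the first array of each group, and its part in the MCM5 values was not tested.

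Origin firing, the step that starts the helicase, had 4 genes above 0 and 4 below, a median of -0.01 and a range of -0.16 to 0.12. CDC45, a helicase subunit, had 10.54 and 10.74 on the sh-ACTL6A arrays, against 10.59 and 10.46 on the scramble arrays. Its groups overlapped, and the difference of 0.12 ± 0.15 (SE, limma adjusted p = 0.962) was the highest of this step. CDC7, the catalytic kinase subunit, had 10.01 and 10.59 on the sh-ACTL6A arrays, against 10.44 and 10.48 on the scramble arrays. Here the sh-ACTL6A arrays lay on either side of the scramble arrays, and the difference was -0.16 ± 0.20 (limma adjusted p = 0.962). DBF4, its activating subunit, had a difference of 0.02 and MCM10, a scaffold of the activated helicase, one of -0.03.

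The 4 GINS subunits, which join CDC45 on the helicase, had differences between -0.12 and 0.10. GINS3 had 9.98 and 9.89 on the sh-ACTL6A arrays, against 10.06 and 10.04 on the scramble arrays, with no overlap. The difference came to -0.12 ± 0.15 (SE, limma adjusted p = 0.96). GINS2 had 11.43 and 11.85 on the sh-ACTL6A arrays, against 11.69 and 11.59 on the scramble arrays. As in GINS1, with 11.56 and 12.30 on the sh-ACTL6A arrays and 12.04 and 11.90 on the scramble arrays, the first sh-ACTL6A array was the lowest of the 4 and the second the highest.

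The polymerases and clamp group had 8 genes above 0 and 9 below, a median of -0.04 and a range of -0.41 to 0.14. The genes of polymerase alpha-primase, POLA1, POLA2, PRIM1 and PRIM2, had differences between 0.00 and 0.14. The other POLA2 probe sets above the signal threshold were dimmer and lay on the low side, at -0.26 and -0.15. POLD1, POLD2 and POLD3 of polymerase delta, the main lagging-strand enzyme, lay between -0.06 and 0.03. POLE and POLE2 of polymerase epsilon, the leading-strand enzyme, had 0.07 and 0.05. POLE2 had 11.12 and 11.15 on the sh-ACTL6A arrays, against 11.18 and 10.99 on the scramble arrays, so that both sh-ACTL6A values lay inside the scramble range. FEN1 and LIG1, which trim and join lagging-strand fragments, had differences of -0.05 and 0.06.

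By their brightest probe sets the clamp and its loader lay on the low side, without passing the test. PCNA had 13.55 and 13.46 on the sh-ACTL6A arrays, against 13.76 and 13.62 on the scramble arrays. Both sh-ACTL6A arrays were below both scramble arrays, and the difference was -0.19 ± 0.09 (SE, n = 2 each, limma adjusted p = 0.918), a fold of 0.879 with a 95% interval of 0.754 to 1.02. The 5 RFC genes, the subunits of the clamp loader, were all below 0 with the deposited scaling, quantile normalisation and median centring, between -0.41 and -0.09 in the first, with a median of -0.19. With the mean of all probe sets RFC2 and RFC5 were above 0, at 0.02 and 0.04, and without the second sh-ACTL6A array RFC1 was, at 0.03. RFC5 and RFC2 were below both scramble arrays, where 15.4% of all genes tested were, with differences of -0.19 ± 0.13 and -0.09 ± 0.12. The other RFC5 probe sets were at 0.01 and 0.31. The set at 0.31 was above both scramble arrays, where 18.3% of all probe sets tested were. The second RFC2 probe set did not overlap in the opposite direction, with 11.11 and 11.15 on the sh-ACTL6A arrays, against 11.02 and 10.99 on the scramble arrays, a difference of 0.13 ± 0.13.

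The largest 2 of these differences rested on 1 array. RFC4 had 12.38 and 11.66 on the sh-ACTL6A arrays, against 12.50 and 12.36 on the scramble arrays. The gene differed by -0.41 ± 0.22 (SE, limma adjusted p = 0.918), a fold of 0.751 with a 95% interval of 0.53 to 1.06. RFC1, the large subunit, had 11.23 and 10.40 on the sh-ACTL6A arrays, against 11.19 and 11.20 on the scramble arrays, and a difference of -0.38 ± 0.25 (limma adjusted p = 0.927). In both genes the first sh-ACTL6A array lay near the scramble arrays and the second was low, the opposite array from the one that was low for ORC6. The second RFC1 probe set above the threshold had the same pattern, with 10.92 and 9.86 on the sh-ACTL6A arrays and 10.90 and 10.92 on the scramble arrays. RFC2, RFC3 and RFC5 alone had a median of -0.11.

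**Figure D2:**
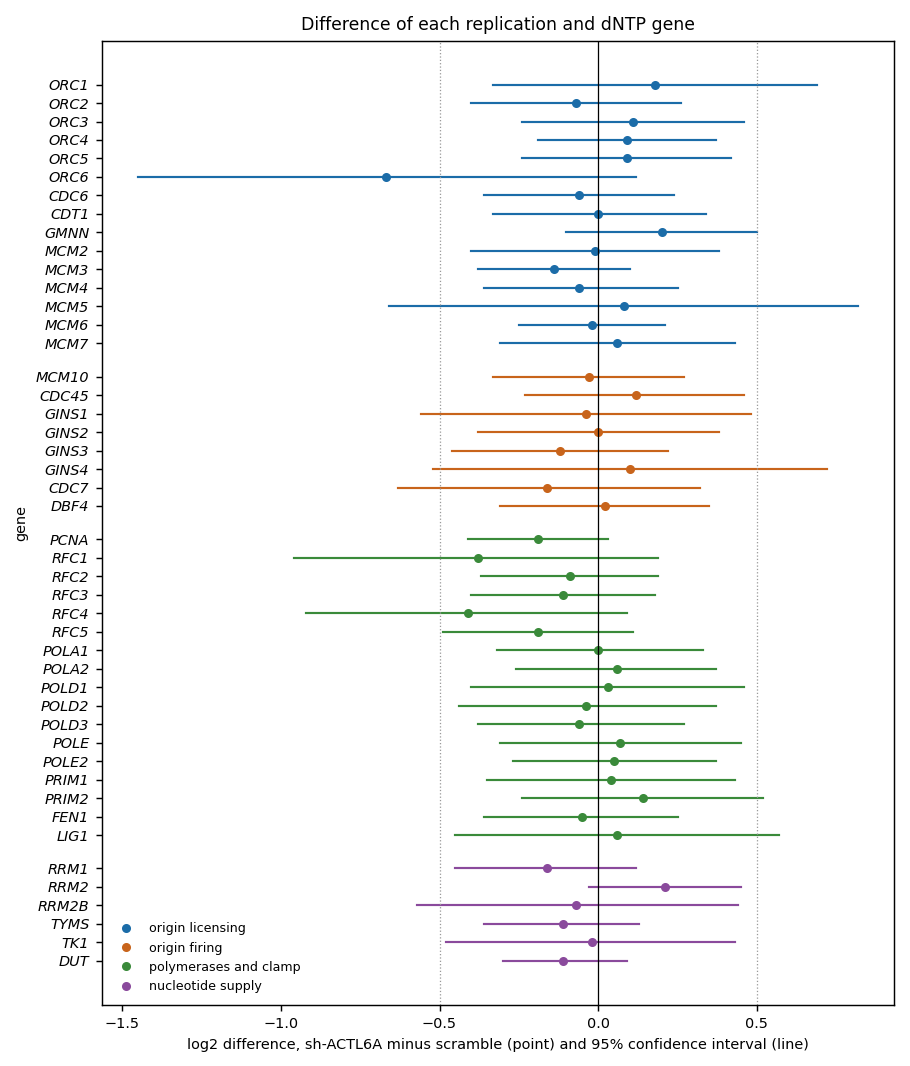
Log2 difference, sh-ACTL6A minus scramble, of each of the 46 genes (points, coloured by step) with its 95% confidence interval from limma (lines, n = 2 arrays each), and dotted lines at a difference of 0.5 either way. All 46 intervals cross 0, and those of ORC6, MCM5, RFC1 and RFC4 are among the widest.

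Nucleotide supply had 1 gene above 0 and 5 below, a median of -0.09 and a range of -0.16 to 0.21. RRM2 had 13.40 and 13.61 on the sh-ACTL6A arrays, against 13.28 and 13.31 on the scramble arrays. The groups did not overlap, and the difference of 0.21 ± 0.10 (SE, n = 2 each, limma adjusted p = 0.917) had the smallest unadjusted p of the 46 genes, 0.0777. Its fold was 1.16 with a 95% interval of 0.98 to 1.36. RRM1, the large subunit of the same enzyme, had 12.91 and 13.23 on the sh-ACTL6A arrays, against 13.25 and 13.21 on the scramble arrays. The second sh-ACTL6A array was at the scramble level, and the difference was -0.16 ± 0.12 (limma adjusted p = 0.935). RRM2B, the small subunit used outside S phase, had a difference of -0.07.

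TYMS, thymidylate synthase, had 13.81 and 13.56 on the sh-ACTL6A arrays, against 13.81 and 13.79 on the scramble arrays. TK1, the cytosolic thymidine kinase, had 11.23 and 11.71 on the sh-ACTL6A arrays, against 11.32 and 11.67 on the scramble arrays. Their differences were -0.11 ± 0.11 and -0.02 ± 0.19, and TK1, like MCM5, was lower on the first array of each group. DUT, the dUTPase that keeps uracil out of DNA, had 13.52 and 13.48 on the sh-ACTL6A arrays, against 13.62 and 13.59 on the scramble arrays. The difference of -0.11 ± 0.09 (SE, limma adjusted p = 0.941) came with no overlap of the arrays.

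The 2 sh-ACTL6A arrays lay farther apart than the 2 scramble arrays did. Over the 46 genes the median gap within the pair was 0.22 for sh-ACTL6A and 0.13 for scramble, beside 0.22 and 0.15 over all genes tested. Set against the same scramble mean, the median of the 46 genes was -0.05 on the first sh-ACTL6A array and 0.02 on the second. Gaps over 0.5 within the sh-ACTL6A pair were found in ORC6, MCM5, GINS1, CDC7, RFC1, RFC4 and RRM2B, and gaps over 0.5 within the scramble pair in MCM5, GINS4 and LIG1.

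Leaving out 1 sh-ACTL6A array moved the differences of single genes. The spread within groups then came from the scramble pair alone, the closer of the pairs. The p-values of such a fit hold no sh-ACTL6A spread, so only differences are given. Without the first sh-ACTL6A array, RFC4 had -0.77, RFC1 -0.80 and ORC6 -0.06. Without the second, RFC4 had -0.05, RFC1 0.03 and ORC6 -1.27. Without the first or the second scramble array, RFC4 had -0.35 and -0.48, RFC1 -0.39 and -0.38, and ORC6 -0.59 and -0.75.

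**Figure D3:**
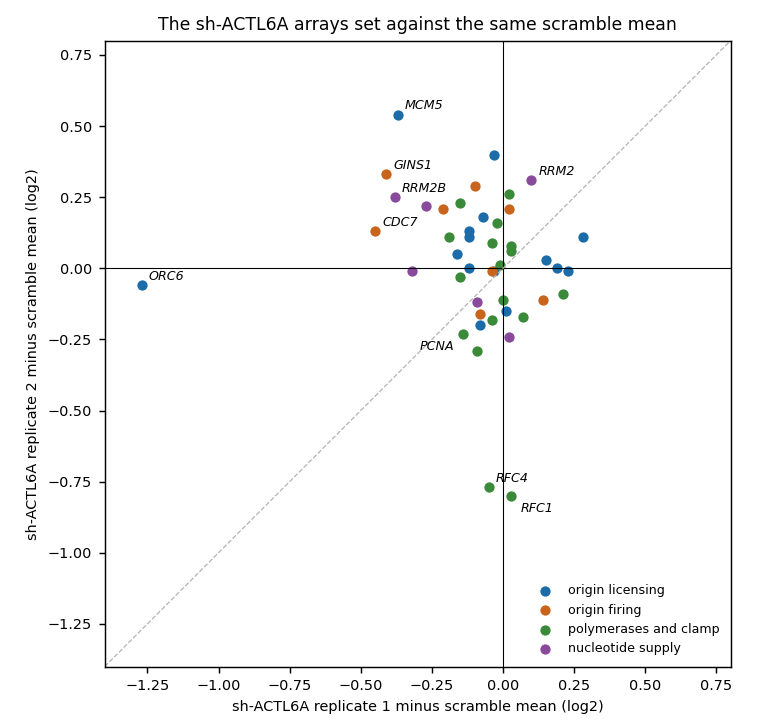
Log2 difference from the scramble mean of the first sh-ACTL6A array (x axis) and the second (y axis) for each of the 46 genes, coloured by step, with the line of equal values dashed. ORC6 lies far left on the x axis alone (-1.27 and -0.06), and RFC4 (-0.05 and -0.77) and RFC1 (0.03 and -0.80) lie low on the y axis alone. The points share the scramble mean.

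Probe sets of 1 gene read the same RNA and are not replicates, but they show how far a gene's value depends on the probes. Of the 85 probe sets, 80 lay above the signal threshold and 5 below. By limma over 27307 probe sets, 0 of the 80 passed the adjusted threshold and 0 had an unadjusted p under 0.05, where 4.56% of all probe sets tested did. On the sh-ACTL6A arrays 6 of the 80 were above both scramble arrays (background 18.3%) and 13 were below both (background 15.1%). In 25 genes 2 or more probe sets were above the threshold. Their differences had the same sign in 12 genes and opposite signs in 13.

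DUT was 1 of the genes with the same sign. All 3 of its probe sets were below both scramble arrays, at -0.19, -0.16 and -0.11, where 15.1% of all probe sets tested were. Its probe set with the difference of -0.19 had 13.18 and 13.14 on the sh-ACTL6A arrays, against 13.33 and 13.36 on the scramble arrays (limma adjusted p = 0.984). The second probe sets of RRM2 and RRM1 kept the sign of the first, at 0.06 and -0.17. Probe sets of TK1 ran from -0.02 to 0.35, those of TYMS from -0.11 to 0.18 and those of MCM10 from -0.03 to 0.27. Signs thus differed within TK1, TYMS and MCM10. The second CDC6 probe set had 11.11 and 11.26 on the sh-ACTL6A arrays, against 11.49 and 11.41 on the scramble arrays, a difference of -0.27 ± 0.13 (limma adjusted p = 0.984) beside -0.06 for the first. RFC3 had 3 probe sets between -0.18 and -0.11. The chosen probe sets of ORC6, CDT1, RFC1 and DUT have names ending in _x_at, a design that may bind more than 1 transcript. The other chosen probe sets, many with names ending in _s_at, are not thereby specific to 1 transcript.

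In 3 genes the probe sets disagreed in sign and lay 0.5 or more apart. GINS2 ranged from -0.22 to 0.52, and the probe set at 0.52 had 7.01 and 7.11 on the sh-ACTL6A arrays, against 6.41 and 6.67 on the scramble arrays. MCM6 ranged from -0.02 to 0.55, and the probe set at 0.55 had 7.99 and 7.39 on the sh-ACTL6A arrays, against 7.16 and 7.13 on the scramble arrays. For RFC5 the differences ran from -0.19 to 0.31, and the probe set at 0.31 had 10.03 and 9.79 on the sh-ACTL6A arrays, against 9.76 and 9.45 on the scramble arrays. Each of these 3 higher values came from a probe set other than the brightest of the gene and had a limma adjusted p of 0.984. Below the threshold the differences were wider, from -0.32 to 1.74. The GINS4 probe set at 1.74 had 4.54 and 5.85 on the sh-ACTL6A arrays and 2.06 and 4.85 on the scramble arrays, which overlap.

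**Figure D4:**
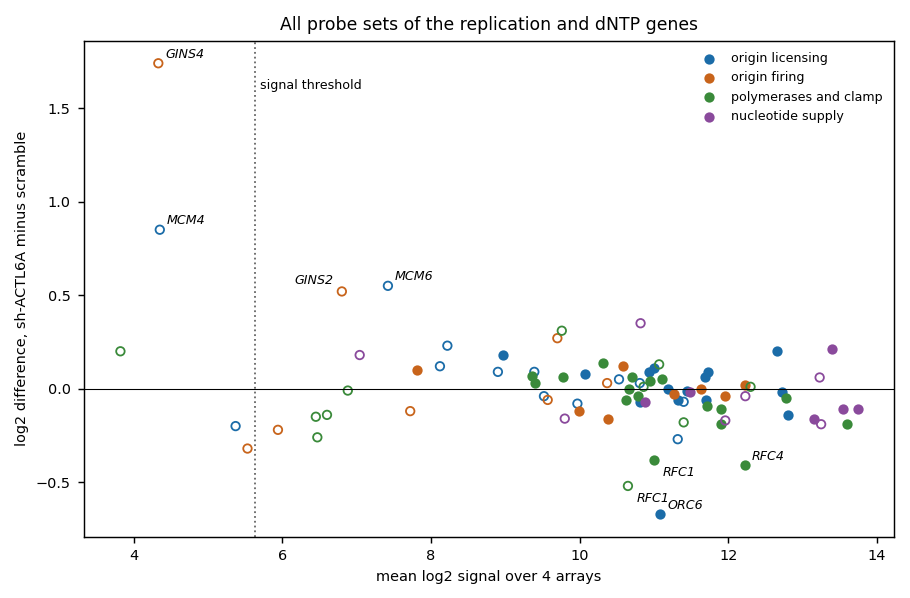
Mean log2 signal over the 4 arrays (x axis) and log2 difference, sh-ACTL6A minus scramble (y axis), of all 85 probe sets, with filled circles for the probe set that stands for its gene, open circles for the others and the signal threshold of 5.63 dotted. The filled circles lie between -0.67 and 0.21, and the highest differences, such as 1.74 for GINS4, belong to dim open circles.

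Genes of the same pathway outside the list were read in the same way. Of 52 such genes, taking in single-strand binding proteins, fork and firing factors, further nucleotide enzymes and regulators of the G1/S transition, 50 were tested. Their median difference was 0.05, with 30 above 0 and 20 below, and 0 were called by limma. An unadjusted p under 0.05 was found in 3 of the 50, 2 higher and 1 lower, where 5.5% of all genes tested had one. Groups did not overlap in 10 on the high side and 7 on the low side, beside backgrounds of 19.3% and 15.4%.

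The 14 regulators of the G1/S transition had a median of 0.08, and in 5 of them both sh-ACTL6A arrays were above both scramble arrays and in 0 below both, beside the backgrounds of 19.3% and 15.4%. E2F7, a repressor among the E2F factors, had 12.10 and 12.09 on the sh-ACTL6A arrays, against 11.72 and 11.52 on the scramble arrays, a difference of 0.48 ± 0.13 (SE, n = 2 each, limma adjusted p = 0.653). E2F3, an activator, had 10.52 and 10.23 on the sh-ACTL6A arrays, against 9.91 and 9.83 on the scramble arrays, a difference of 0.50 ± 0.16 (adjusted p = 0.802). CDC25A, the phosphatase that activates CDK2, had 9.53 and 9.87 on the sh-ACTL6A arrays, against 9.31 and 9.36 on the scramble arrays, a difference of 0.37 ± 0.18 (adjusted p = 0.917). None of these passed the adjusted limma threshold. DCTPP1, which breaks down dCTP and modified forms of it, had 12.13 and 12.41 on the sh-ACTL6A arrays, against 12.58 and 12.55 on the scramble arrays, a difference of -0.29 ± 0.13 (limma adjusted p = 0.906).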

How the data were processed

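The authors deposited log2 signals of 54675 probe sets for each of the 4 arrays. MAS5 is named in the submitters' processing notes, without a version. It summarises and scales every array by itself. The linear signal, trimmed by 2% at each end, averaged 500.0 on every array, and median log2 signal was 5.69 and 5.83 on the sh-ACTL6A arrays and 5.78 and 5.80 on the scramble arrays. Dim MAS5 signals vary most between arrays, so a filter was set. The values were used as deposited.

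Among 54613 probe sets other than controls, 41091 carried 1 symbol in the platform annotation, 1801 several and 11721 none there. Those with several, 4 of PRIM2 among them, were left out. Each gene was represented by its probe set with the highest mean signal, kept where that mean reached the 50th percentile, 5.63. Differences were tested on all 12286 genes with limma 3.58.1 in R 4.3.3 (lmFit, eBayes with an intensity trend, 7.65 degrees of freedom), 2-sided, with Benjamini-Hochberg adjustment at 0.05. Probe sets were fitted in the same way. The code was tested on simulated data. With 2 arrays against 2, an exact permutation test cannot go below p = 0.333, and the number of arrays limits the precision.

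Groups came from the sample labels. The listed genes, the lists of other genes and the tests were chosen with earlier results of these data known. Values on every array were given for the genes of each step with the 3 smallest unadjusted p, for 11 core genes (CDC6, CDT1, MCM2, MCM7, CDC45, PCNA, POLE2, RRM1, RRM2, TYMS and TK1), for genes whose probe sets disagreed in sign by more than 0.5, and for the 4 other pathway genes with the smallest p. ORC1, GINS1, MCM5, the second probe sets of CDC6, RFC1, RFC2 and DUT and the GINS4 probe set below the threshold were added after their values were seen. Alternatives were quantile normalisation, median centring, no and a stricter (75th percentile) filter, the mean of all probe sets, an offset, no intensity trend, leaving out each array, a block for the replicate number, every probe set and the t-test that the methods name.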

Additional observations from a re-analysis of the deposited data

How the results depend on the processing

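With 2 arrays a group, differences of single genes depended on which array was used. The number of listed genes called was 0 under every alternative that kept all arrays, as was the number of their probe sets. Calls of the leave-one-out fits are not counted, because 1 group then has a single array and adds no spread. The methods' t-test also gave 0 of the 46 at an unadjusted p under 0.05 (5.47% of all genes) and 0 after Benjamini-Hochberg adjustment, and it did not call ACTL6A (adjusted p = 0.844). Over the leave-one-out fits the median of the 46 genes ran from -0.06 to 0.02, that of licensing from -0.07 to 0.03, of firing from -0.11 to 0.17, of the polymerases and clamp from -0.06 to -0.02, of nucleotide supply from -0.18 to 0.11 and of the other pathway genes from -0.00237 to 0.04. The licensing median was 0.06 with the mean of all probe sets. The median of the polymerases and clamp was -0.02 with quantile normalisation, -0.01 with median centring, 0.000815 with the mean of all probe sets and -0.03 with every probe set. The cause was not tested. Signs turned in 4 of the 46 genes with quantile normalisation, 4 with median centring, 10 with the mean of all probe sets and 9 to 15 when 1 array was left out.

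At an unadjusted limma p under 0.05 there was 1 gene with quantile normalisation (RRM2, where 5.44% of all genes had one) and 1 with median centring (ORC6, 5.18%). Replicate numbers were not taken to pair the arrays. Deviations from the group means correlated at r = 0.0565 over all genes, and at 0.199 over the 46, between arrays of the same number, and nothing in the labels ties the numbers to a shared culture or day. With the replicate number as a block, 0 of the 46 were called, RFC4 and ORC6 had an unadjusted p under 0.05 (7.24% of all genes), and the median stayed at -0.02.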
